A study of Mus musculus with 9 samples.

Results

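The genes of the dystrophin-glycoprotein complex and its closest partners were examined in the gastrocnemius, a calf muscle, of 9 mice of 6 genotypes. The members were the 7 genes Dmd, Utrn, Sgca, Sgcb, Dag1, Nos1 and Cav3, taken with every probe set that the platform annotation assigns to one of them alone. They had 11 probe sets among 12422 that are not controls, on Affymetrix U74Av2 arrays, which measure transcripts with sets of short oligonucleotide probes. Each mouse had its own array. There were 2 wild-type mice on a C57Bl/DBA2/129OLA-Ev background, 2 mdx mice, 2 hDMD mdx mice, and 1 mouse each of the genotypes hDMD, mdx utrn-/- and hDMD mdx utrn-/-. Mdx mice carry a mutation in the mouse Dmd gene, hDMD marks the full-length human dystrophin gene as a transgene, and utrn-/- mice lack utrophin. The wild-type mice were 7 weeks old, the hDMD mouse 11, mdx 1 and 2 were 15 and 13, hDMD mdx 1 and 2 were 24 and 10, the mdx utrn-/- mouse 5 and the hDMD mdx utrn-/- mouse 9. All were male but wild-type 1. Every mdx and hDMD mdx mouse was older than the wild-type pair, so age and genotype cannot be told apart in those comparisons. On mdx backgrounds both utrophin-null mice were younger than every utrophin carrier, so the same holds for that comparison.

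Dystrophin is a long rod-shaped protein beneath the muscle fibre membrane. It holds actin at one end and, at the other, β-dystroglycan, whose partner α-dystroglycan binds laminin outside the fibre. The sarcoglycans brace dystroglycan in the membrane, neuronal nitric oxide synthase is anchored to the complex inside it, and caveolin-3, the muscle protein that builds membrane caveolae, also binds β-dystroglycan. Utrophin is the close relative of dystrophin found at nerve-muscle junctions and in regenerating fibres. In the mdx mutant the complex is largely lost from the membrane as protein, which transcript levels do not measure.

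The results below turn on Cav3, the member with the clearest separation by dystrophin, on Sgca, the well-detected member whose arrays separated by utrophin genotype, and on Dag1, the steadiest of the well-detected members. Their bases before the annotated gene start are shown for that reason, from RefSeq on GRCm38.p6, 5′ to 3′ along the gene. Neither separation passed the threshold given below. Arrays separated in this way for 2.94% of all probe sets kept by dystrophin, and for 16.3% by utrophin genotype on mdx backgrounds. Capitals mark the letters CANNTG, where N is any base, the E-box read by myogenic factors. The windows are chr6:112459255-112459504 (plus strand) for Cav3, chr11:94976328-94976577 (minus strand) for Sgca and chr9:108263978-108264208 (minus strand) for Dag1. The Dag1 window was shortened to 231 bases so that it ends before the first annotated transcript start.
Cav3: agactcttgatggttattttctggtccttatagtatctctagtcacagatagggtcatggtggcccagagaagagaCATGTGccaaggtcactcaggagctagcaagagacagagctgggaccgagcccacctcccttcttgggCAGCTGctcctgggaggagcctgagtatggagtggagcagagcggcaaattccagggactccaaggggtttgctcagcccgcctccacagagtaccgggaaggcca
Sgca: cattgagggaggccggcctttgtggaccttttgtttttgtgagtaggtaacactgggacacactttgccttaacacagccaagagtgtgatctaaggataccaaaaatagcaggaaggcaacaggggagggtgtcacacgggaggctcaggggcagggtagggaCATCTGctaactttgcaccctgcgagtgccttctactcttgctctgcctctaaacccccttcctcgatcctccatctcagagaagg
Dag1: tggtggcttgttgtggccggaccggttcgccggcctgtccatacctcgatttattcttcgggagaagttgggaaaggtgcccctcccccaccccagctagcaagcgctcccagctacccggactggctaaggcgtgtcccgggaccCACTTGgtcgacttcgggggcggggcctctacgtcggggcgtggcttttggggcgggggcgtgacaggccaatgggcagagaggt
The Cav3 window held 2 E-boxes, CATGTG and CAGCTG, the Sgca window 1, CATCTG, and the Dag1 window 1, CACTTG. The Dag1 window also held 2 matches to GGGCGG, the GC box of many housekeeping promoters, searched on both strands, and it had the highest G and C content of the 3 at 65.8%, against 56.0% for Cav3 and 52.8% for Sgca. Such matches are common: of 32851 RefSeq windows of 250 bases before a start, 66.2% held CANNTG, 13.0% held CAGCTG, which is one form of it, and 32.7% held GGGCGG. The core letters of the muscle M-CAT element, CATTCC, were found on neither strand of the 3 windows and in 12.6% of all windows. The matches describe the letters and were not tested for binding.

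Deposited intensities differed widely in scale between arrays, with array medians from 1.47 to 45.6, and were quantile normalised. Levels are given as log2(intensity + 16), with a floor of 4, and a level below 5 in all arrays is called near the floor. Fold changes on this scale understate the change of dim genes. On 9 hybridisation spike-in probe sets, 3 arrays (wild-type 1, mdx 2 and hDMD mdx 1) had deposited medians of at least 206 and the other 6 at most 42.3. They are called bright and dim here. The labels give no scan or batch. Of 7453 probe sets kept by a filter on dim signal, 26.1% did not overlap between bright and dim arrays after normalisation, and of the 10 member probe sets kept this held for 4: Utrn 92508_s_at, Sgca 103395_at, Sgcb 93898_at and Cav3 162297_s_at. Values within bright and within dim arrays therefore stand beside the members' differences. In comparisons of single genotypes each such value sets 1 mouse against 1 mouse. The muscle label was borne out by the 8 of 8 fibre markers measured, whose summed normalised intensity was 15900 to 18800 in every array. In whole muscle, fewer cells of a type and less RNA per cell cannot be told apart.

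No member probe set passed the threshold, an adjusted p under 0.05 by limma with Benjamini-Hochberg adjustment over 7453 probe sets, in any of 6 comparisons. The background was thin as well. When the 3 arrays without full-length dystrophin (both mdx mice and the mdx utrn-/- mouse) were compared with the 6 that carry it, mouse or human, 0.121% of probe sets passed (9, all higher without it). In each of the other 5 comparisons 0% passed. Probe sets with an unadjusted p under 0.05 numbered 416 for the dystrophin classes and 130 for mdx against wild-type. They numbered 215 for hDMD mdx against mdx and 62 for hDMD mdx against wild-type. For utrophin-null against utrophin-carrying mice there were 440, and 409 for the human gene against none on mdx backgrounds. With no difference anywhere, a share of 0.05 of the 7453 would be expected under that limit. The comparisons of single genotypes, at 62 to 215, lay below that share, and the others above it. In the former the residual spread comes from pairs of 1 bright and 1 dim array, so these low counts do not show that the genotypes are alike.

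**Figure D1:**
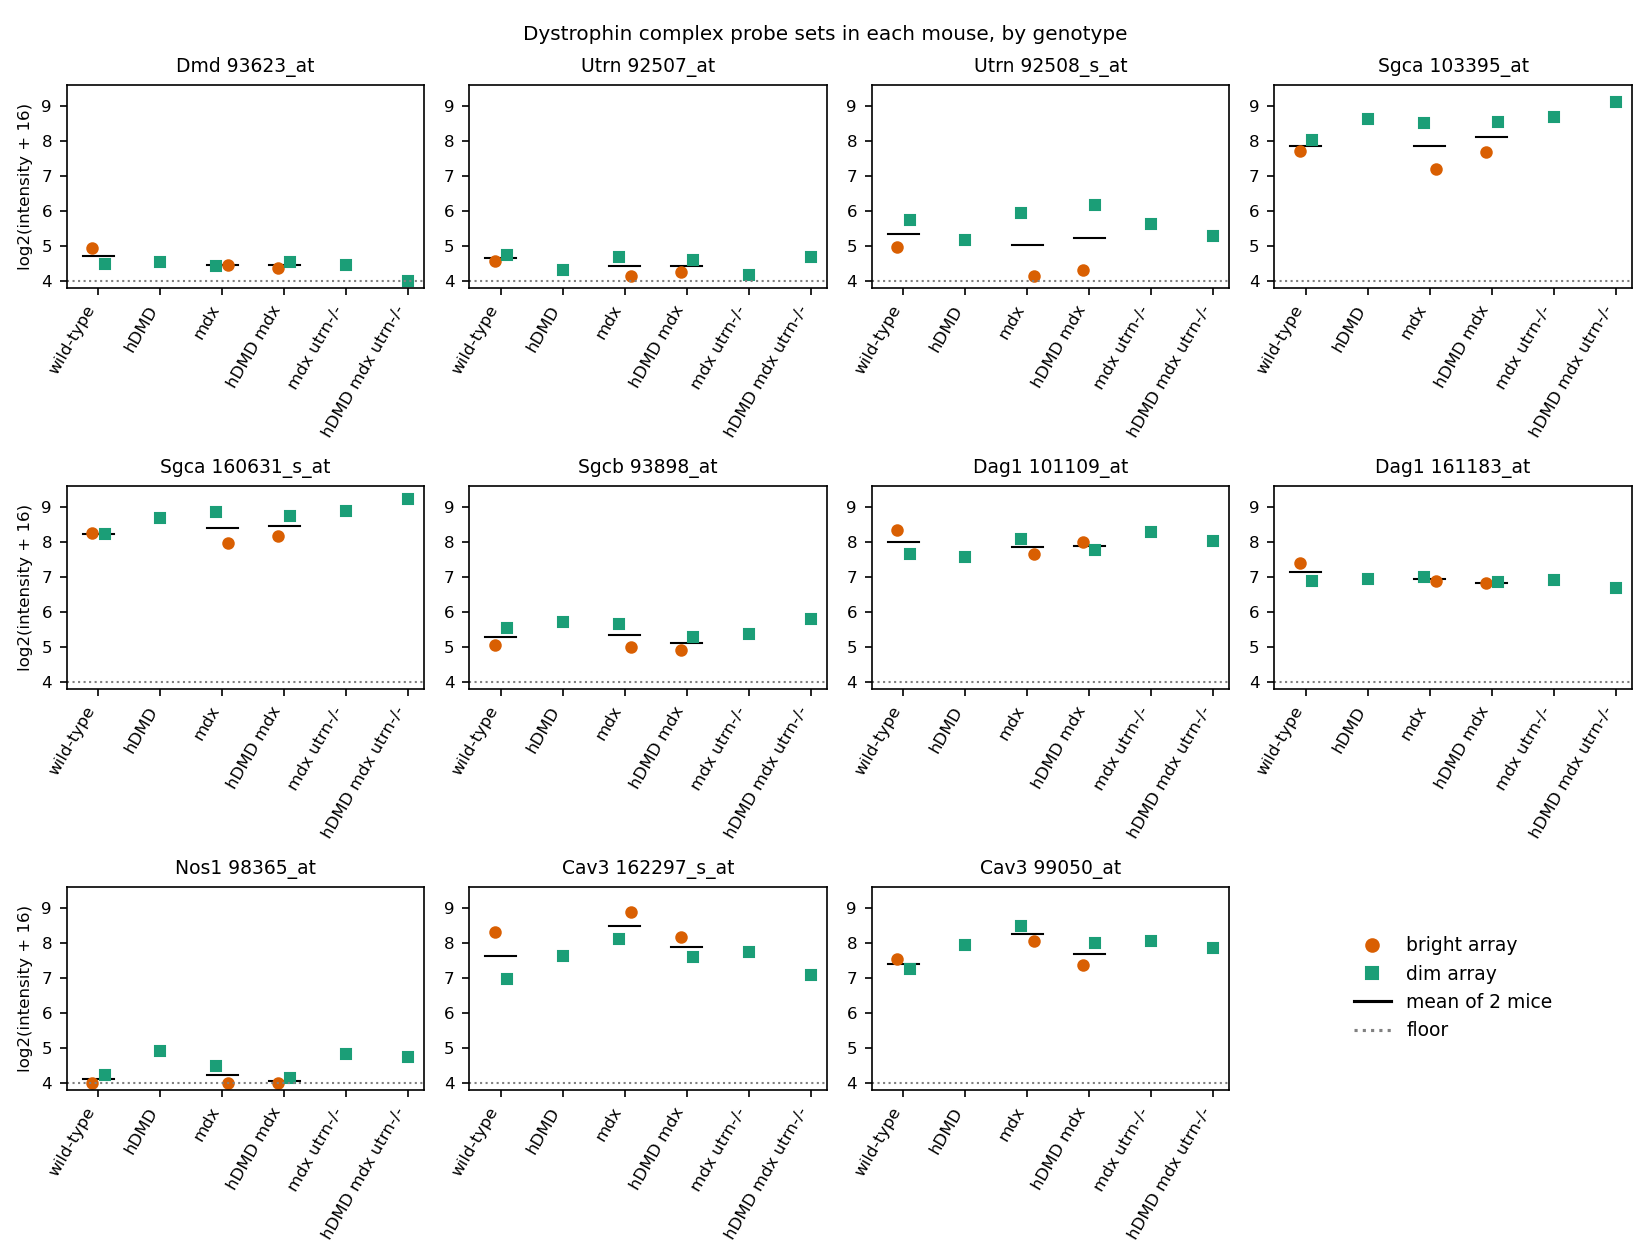
Level of each of the 11 member probe sets, as log2(intensity + 16) on the vertical axis, by genotype; each point is 1 mouse, circles are bright and squares dim arrays, the line is the mean of 2 mice and the dotted line the floor of 4. Dmd, Nos1 and Utrn 92507_at stay below 5 in every mouse, and both mdx mice lie above both wild-type mice on Cav3 99050_at.

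The targeted genes came first, since they check the labels. The single Dmd probe set, 93623_at (Entrez gene 13405), read 4.95 and 4.49 in wild-type mice 1 and 2, 4.55 in hDMD, 4.44 and 4.46 in mdx 1 and 2, 4.38 and 4.55 in hDMD mdx 1 and 2, 4.46 in the mdx utrn-/- mouse and 4 in the hDMD mdx utrn-/- mouse. All 9 values lay near the floor, so the probe set did not resolve dystrophin transcript in any genotype. Both mdx mice were below both wild-type mice (4.45 ± 0.01 against 4.72 ± 0.33, SD, n = 2 each), a difference of -0.27 ± 0.34 (SE; limma adjusted p = 1). Within bright arrays it was -0.49 and within dim arrays -0.05. The part of the transcript that the probes read was not given in the sources used here, nor whether they read the human one.

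Utrophin has 2 probe sets (Entrez gene 22288). Of these, 92507_at was near the floor in all 9 arrays, from 4.15 to 4.74. The other, 92508_s_at, read 4.96 and 5.73 in wild-type 1 and 2, 5.18 in hDMD, 5.93 and 4.15 in mdx 1 and 2, 4.33 and 6.16 in hDMD mdx 1 and 2, 5.64 in the mdx utrn-/- mouse and 5.28 in the hDMD mdx utrn-/- mouse. The 3 bright arrays, at 4.15 to 4.96, all lay below the 6 dim ones, at 5.18 to 6.16, whatever their genotype. Over all 6 arrays on mdx backgrounds the utrophin-null mice lay within the range of the 4 carriers. Both were above the 2 bright carriers (mdx 2 and hDMD mdx 1) and below the 2 dim ones (mdx 1 and hDMD mdx 2). Their mean was 5.46 ± 0.26 (SD, n = 2) against 5.14 ± 1.05 (SD, n = 4), a difference of 0.32 ± 0.64 (SE; limma adjusted p = 0.887), and -0.59 within dim arrays. The sign thus differed with and without the bright arrays, and the utrn-/- label could not be settled from these probe sets, whose position relative to the disrupted part was not given in the sources used here. Whether utrophin transcript is higher without dystrophin could not be settled either. The difference of 92508_s_at between arrays lacking and carrying full-length dystrophin was -0.03 ± 0.44 (SE; 95% interval -1.0 to 0.94). Within bright arrays it was -0.50 and within dim arrays 0.20, and each class included a utrophin-null mouse. In mdx against wild-type muscle, which has none, it was -0.31 ± 0.78 (SE; 95% interval -2.15 to 1.54). There it was -0.82 within bright and 0.20 within dim arrays, and the interval leaves room for either sign.

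Dag1 (Entrez gene 13138) encodes the precursor of both dystroglycans. Its probe set 101109_at read 8.33 and 7.65 in wild-type 1 and 2, 7.57 in hDMD, 8.07 and 7.64 in mdx 1 and 2, 7.98 and 7.76 in hDMD mdx 1 and 2, 8.27 in the mdx utrn-/- mouse and 8.03 in the hDMD mdx utrn-/- mouse. The genotypes overlapped throughout, and without full-length dystrophin the level was 7.99 ± 0.32 (SD, n = 3) against 7.89 ± 0.28 (SD, n = 6), a difference of 0.10 ± 0.24 (SE; 95% interval -0.42 to 0.63; limma adjusted p = 0.999). Within bright arrays it was -0.51 and within dim arrays 0.41. The second probe set, 161183_at, lay between 6.68 and 6.99 in 8 arrays and at 7.39 in wild-type 1. Its difference by dystrophin was 0.00 ± 0.21 (SE; 95% interval -0.47 to 0.46), with -0.22 within bright and 0.11 within dim arrays. Between the dystrophin classes, the interval of each Dag1 probe set excludes a change of 1 log2 unit in either direction. In mdx against wild-type muscle the 95% intervals were -1.0415 to 0.7645 for 101109_at and -1.0045 to 0.6054 for 161183_at. Those do not exclude a fall of 1 log2 unit.

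The sarcoglycans are small membrane proteins whose loss causes limb-girdle muscular dystrophies. Sgca, α-sarcoglycan (Entrez gene 20391), was well detected. Probe set 103395_at read 7.69 and 8.03 in wild-type 1 and 2, 8.62 in hDMD, 8.50 and 7.18 in mdx 1 and 2, 7.66 and 8.53 in hDMD mdx 1 and 2, 8.67 in the mdx utrn-/- mouse and 9.09 in the hDMD mdx utrn-/- mouse. Probe set 160631_s_at read 8.26, 8.21, 8.68, 8.83, 7.97, 8.16, 8.73, 8.87 and 9.21 in the same order of mice. On both, the 2 utrophin-null mice were the highest of the 9. By dystrophin the values overlapped: the differences were -0.15 ± 0.40 (SE; 95% interval -1.03 to 0.72) and 0.02 ± 0.30 (SE; 95% interval -0.64 to 0.67), both with a limma adjusted p of 0.999. Within bright arrays they were -0.50 and -0.24, and within dim arrays 0.02 and 0.14.

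On mdx backgrounds the utrophin-null mice exceeded all 4 utrophin carriers on both Sgca probe sets, at 8.88 ± 0.30 against 7.97 ± 0.66 for 103395_at and 9.04 ± 0.24 against 8.42 ± 0.42 for 160631_s_at (SD, n = 2 and 4). The differences were 0.92 ± 0.44 (SE; 95% interval -0.12 to 1.95) and 0.62 ± 0.36 (SE; 95% interval -0.22 to 1.46), each with a limma adjusted p of 0.740, so neither passed. Such non-overlap was found in 16.3% of all probe sets in this comparison, and in 2 of the 10 member probe sets, both of them Sgca. Both utrophin-null arrays were dim while 2 of the 4 carriers were bright, and among dim arrays alone the differences shrank to 0.37 and 0.26. With brightness as a block in the fit they were 0.37 ± 0.27 and 0.26 ± 0.27 (SE), with limma adjusted p = 0.834 and 0.886. An age covariate gave 0.52 and 0.36, the utrophin-null mice being 5 and 9 weeks old and the carriers 10 to 24. These ages do not overlap, so age and utrophin genotype cannot be told apart here, with or without the covariate. Without normalisation they were -1.06 and -1.39, where the median of all probe sets was -1.20. Of 8 fibre markers, 7 were higher in the utrophin-null mice, with summed intensities of 17100 to 18600 against 15900 to 18300. Among dim arrays 4 of 8 were higher, at 17100 to 18600 against 18000 to 18300. The part of fibre content in the Sgca difference was not tested.

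Sgcb, β-sarcoglycan (Entrez gene 24051), has the single probe set 93898_at, which was weakly detected, between 4.93 and 5.78. All 3 bright arrays, at 4.93 to 5.05, lay below the 6 dim ones, at 5.27 to 5.78. The difference by dystrophin was -0.03 ± 0.26 (SE; 95% interval -0.60 to 0.54), with 0.02 within bright and -0.05 within dim arrays. In utrophin-null against utrophin-carrying mice it was 0.36 ± 0.34 (SE; limma adjusted p = 0.769), and 0.11 within dim arrays.

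Nos1, the gene of neuronal nitric oxide synthase (Entrez gene 18125), was near the floor: 98365_at lay between 4 and 4.91, at 4 in all 3 bright arrays, and did not pass the filter. In a fit without the filter its difference by dystrophin was 0.09 ± 0.27 (SE). The utrophin-null mice read 4.82 and 4.75 and the 4 carriers 4 to 4.48, a difference of 0.63 ± 0.17 (SE; limma adjusted p = 0.513 in that fit), and 0.47 within dim arrays. With every value near the floor these figures describe dim signal and no clear level.

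Cav3 (Entrez gene 12391) was the only member whose arrays separated by full-length dystrophin. Probe set 99050_at read 7.52 and 7.26 in wild-type 1 and 2, 7.93 in hDMD, 8.47 and 8.05 in mdx 1 and 2, 7.36 and 7.98 in hDMD mdx 1 and 2, 8.04 in the mdx utrn-/- mouse and 7.84 in the hDMD mdx utrn-/- mouse. Every array without full-length dystrophin, at 8.04 to 8.47, lay above every array with it, at 7.26 to 7.98. The means were 8.19 ± 0.24 (SD, n = 3) and 7.65 ± 0.31 (SD, n = 6), a difference of 0.54 ± 0.24 (SE; 95% interval 0.01 to 1.06), or 1.45-fold on the intensity + 16 scale. Its unadjusted p was 0.0453 and its limma adjusted p 0.875, so it was not called. Non-overlap of this kind was found in 2.94% of the probe sets kept and in 1 of the 10 member probe sets. The difference was of like size within bright arrays, 0.61, and within dim arrays, 0.50. The bright value rests on mdx 2 alone on the side without full-length dystrophin.

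By genotype the order on 99050_at was mdx (8.26 ± 0.30, SD, n = 2), mdx utrn-/- (8.04), hDMD (7.93), hDMD mdx utrn-/- (7.84), hDMD mdx (7.67 ± 0.44, SD, n = 2) and wild-type (7.39 ± 0.19, SD, n = 2). Each step between neighbours was smaller than the spread of a genotype with 2 mice on one side of it, or lay between single mice that have no spread of their own. The hDMD mouse, which carries no label of the mdx mutation, stood above both wild-type mice.

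The other Cav3 probe set, 162297_s_at, read 8.31 and 6.96 in wild-type 1 and 2, 7.63 in hDMD, 8.10 and 8.87 in mdx 1 and 2, 8.15 and 7.60 in hDMD mdx 1 and 2, 7.73 in the mdx utrn-/- mouse and 7.07 in the hDMD mdx utrn-/- mouse. Here the groups overlapped, since the bright arrays, at 8.15 to 8.87, all lay above the dim ones. The difference by dystrophin, 0.62 ± 0.35 (SE; 95% interval -0.16 to 1.39; limma adjusted p = 0.999), nonetheless had the same direction and a like size, with 0.64 within bright and 0.60 within dim arrays. Without mdx 2 it was 0.30. With brightness as a block the limma adjusted p was 0.370 for this probe set and 0.439 for 99050_at. The probe sets disagreed with each other by array rather than by genotype: 162297_s_at minus 99050_at was 0.79 to 0.83 in the 3 bright arrays and -0.77 to -0.30 in the 6 dim ones.

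**Figure D2:**
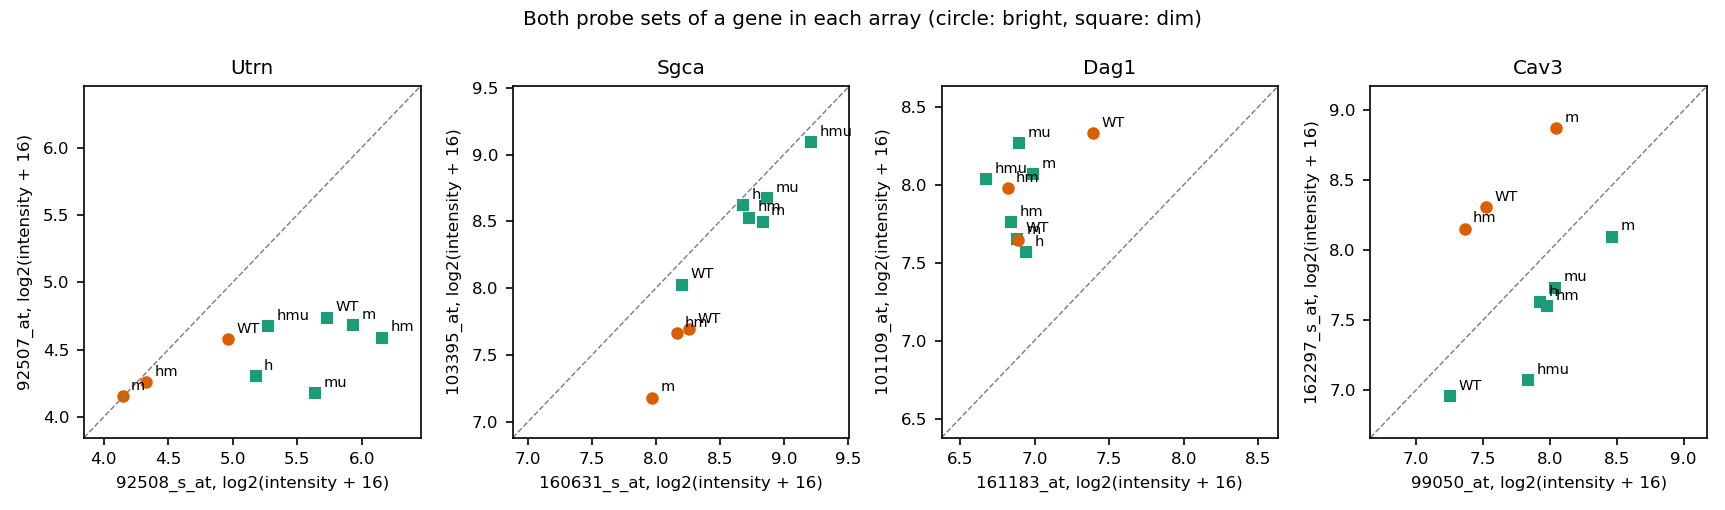
Each panel sets the 2 probe sets of a gene against each other, in log2(intensity + 16) on both axes; each point is 1 array (WT wild-type, h hDMD, m mdx, hm hDMD mdx, mu mdx utrn-/-, hmu hDMD mdx utrn-/-), circles bright and squares dim, and the dashed line marks equal values. For Cav3 the 3 bright arrays sit above the line and the 6 dim arrays below it, and for Sgca the bright arrays lie farthest below it.

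Comparisons of single genotypes share arrays with the class comparison and with each other, so their Cav3 values are set side by side. Their values within bright and within dim arrays each rest on 1 mouse per genotype. In mdx against wild-type muscle, 99050_at differed by 0.87 ± 0.38 (SE; 95% interval -0.02 to 1.76; limma adjusted p = 1), with 0.53 within bright and 1.21 within dim arrays, and 162297_s_at by 0.85 ± 0.54 (SE), or 0.18 to 1.53 with 1 mouse left out. Non-overlap was found in 22% of all probe sets in this comparison of 2 against 2 mice, and in 2 of 10 members, Cav3 99050_at and the near-floor Dmd. In hDMD mdx against mdx muscle the Cav3 differences were -0.58 ± 0.38 (SE; 95% interval -1.47 to 0.30) and -0.61 ± 0.54 (SE), both with a limma adjusted p of 1. Within bright arrays they were -0.68 and -0.72, and within dim arrays -0.49 and -0.50. There 27% of all probe sets and 2 of 10 members, Cav3 99050_at and Dag1 161183_at, did not overlap. On 99050_at the difference was -0.28 without hDMD mdx 1, -0.89 without hDMD mdx 2 and -0.05 without normalisation, where the median of all probe sets was 0.51. Between hDMD mdx and wild-type muscle the difference was 0.28 ± 0.38 on 99050_at (SE; 95% interval -0.61 to 1.17) and 0.24 ± 0.54 on 162297_s_at (SE), with -0.16 and -0.15 within bright arrays and 0.72 and 0.64 within dim ones. The interval leaves room for a difference of either sign. In that comparison 18.9% of all probe sets did not overlap, and 1 of 10 members, Dag1 161183_at, at -0.31 ± 0.34 (SE; limma adjusted p = 1).

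Over both deficient backgrounds, 3 mice with the human gene were compared with 3 without it. Cav3 99050_at was 7.73 ± 0.32 with it and 8.19 ± 0.24 without (SD, n = 3 each), a difference of -0.46 ± 0.31 (SE; limma adjusted p = 0.985), and 162297_s_at differed by -0.63 ± 0.32 (SE; limma adjusted p = 0.979). Within bright arrays they were -0.68 and -0.72, and within dim arrays -0.34 and -0.58. Without hDMD mdx 1 the first was -0.25, and without mdx 1 it was -0.30. The arrays did not overlap on 99050_at and on Dag1 161183_at (6.78 ± 0.09 against 6.92 ± 0.06, SD; difference -0.14 ± 0.26, SE), which is 2 of 10 members against 10.5% of all probe sets. In the utrophin comparison the Cav3 probe sets parted, at -0.02 ± 0.32 (SE; limma adjusted p = 0.986) for 99050_at and -0.78 ± 0.34 (SE; limma adjusted p = 0.740) for 162297_s_at, the one that reads higher in bright arrays, and -0.28 and -0.45 within dim arrays.

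**Figure D3:**
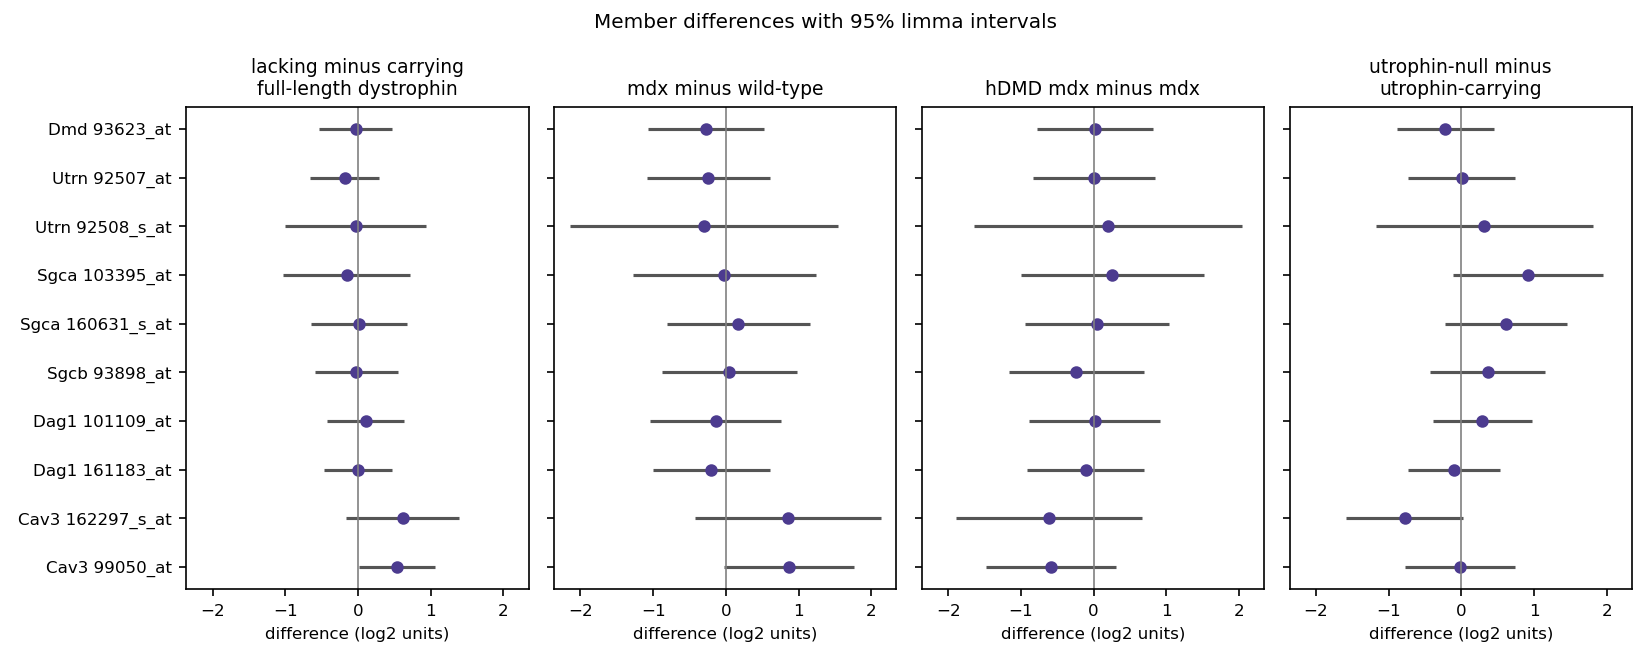
Difference of each of the 10 member probe sets kept by the filter in 4 comparisons, in log2 units on the horizontal axis, with limma 95% intervals as bars. The Cav3 probe sets lie right of 0 in both dystrophin comparisons and left of it in hDMD mdx minus mdx, and the only interval that excludes 0 is that of Cav3 99050_at in the first panel, 0.01 to 1.06, before adjustment.

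Markers of other cells differed with these groups, although none passed the threshold in any comparison. Summed normalised intensity of 7 macrophage markers was 713 to 1240 without full-length dystrophin and 134 to 843 with it, 6 of 7 being higher without it, and the highest carrier was wild-type 2. In hDMD mdx against mdx muscle it was 192 to 206 against 838 to 1240. No macrophage marker was at the floor in all arrays. The fibre marker sums overlapped between the dystrophin classes, at 15900 to 18000 against 16000 to 18800 with 3 of 8 higher without dystrophin. Among dim arrays they were 17100 to 18000 against 18000 to 18800, again with 3 of 8 higher. The largest difference of a fibre marker was that of Mb, myoglobin, at -0.70 ± 0.21 (SE; limma adjusted p = 0.547). For Mb it was -0.87 within bright and -0.61 within dim arrays. Smooth muscle markers were 240 to 365 against 155 to 354, with 1 of 4 higher without dystrophin (Acta2). The part of these in the Cav3 difference was not tested.

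Beyond the members, 72 genes of 6 related lists were considered, of which 47 had a probe set and 39 were kept. None of the 39 passed in either direction in any of the 6 comparisons by limma. Among other complex proteins, 5 of the 8 measured were kept, and their median difference by dystrophin was -0.04, against -0.01 for all probe sets tested, with 2 above 0 and 3 below. Sspn, sarcospan, differed by 0.09 ± 0.27, Sgce, ε-sarcoglycan, by -0.08 ± 0.30, and Aqp4, the water channel anchored by syntrophin, by -0.31 ± 0.36 (SE). Dtna, α-dystrobrevin, which binds dystrophin and the syntrophins, read 6.66 without and 5.97 with full-length dystrophin, a difference of 0.69 ± 0.36 (SE; limma adjusted p = 0.986). The syntrophins measured, Sntb1 and Sntb2, reached at most 4.18 and 4.01 and so could not be described, and the others were not analysed here.

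**Figure D4:**
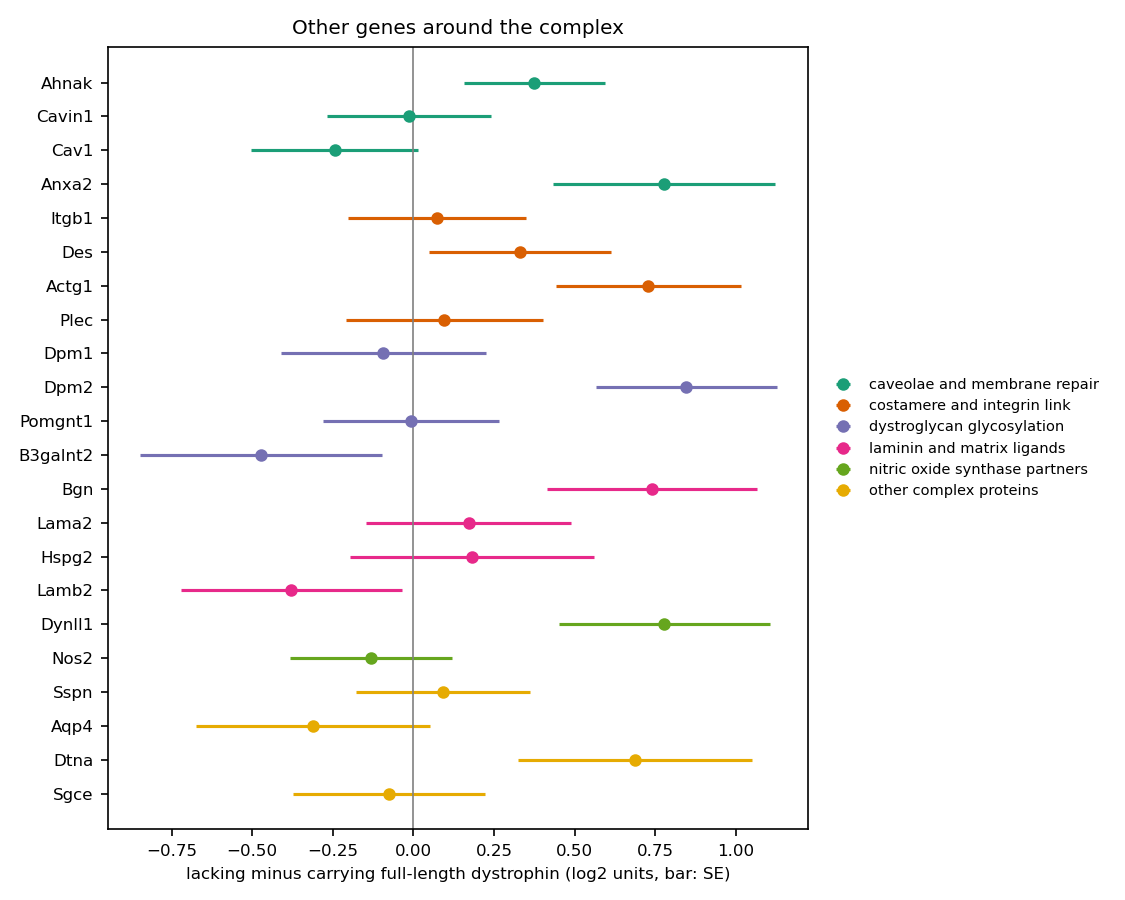
Difference between arrays lacking and carrying full-length dystrophin, in log2 units on the horizontal axis with SE as bars, for up to 4 of the brightest genes of each related list, coloured by list. Dpm2, Dynll1, Anxa2, Bgn, Actg1 and Dtna lie farthest right, at 0.69 to 0.85, and none passed after adjustment.

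Nitric oxide synthase partners had 2 genes kept, with a median of 0.32. Dynll1, a dynein light chain that binds neuronal nitric oxide synthase, differed by 0.78 ± 0.33 (SE; limma adjusted p = 0.868), and Nos2, the inducible synthase, by -0.13 ± 0.25 (SE). Of the 14 genes for the sugar chains of α-dystroglycan, through which it holds laminin, 5 were measured and kept, with a median of -0.01. Dpm2, a subunit of the enzyme that makes the mannose donor, differed by 0.85 ± 0.28 (SE; limma adjusted p = 0.723), by 0.17 within bright and 1.18 within dim arrays, while Pomgnt1, which extends the mannose chain, differed by -0.01 ± 0.27 (SE).

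Laminin and matrix ligands had all 11 genes measured and 10 kept, with a median of 0.16 and 6 above 0. Lama2, the laminin chain of adult muscle, differed by 0.17 ± 0.32 (SE), and Bgn, biglycan, a proteoglycan that binds α-dystroglycan and sarcoglycans, by 0.74 ± 0.33 (SE; limma adjusted p = 0.875). Biglycan was -1.18 ± 0.35 in hDMD mdx against mdx muscle (SE; limma adjusted p = 1), with -0.93 within bright and -1.43 within dim arrays. Caveolae and membrane repair genes had a median of 0.18, with 4 of 8 above 0: Cav1, the caveolin of non-muscle cells, was at -0.24 ± 0.26, Cavin1, the coat protein that caveolae need, at -0.01 ± 0.25, and Anxa2, annexin A2, at 0.78 ± 0.34 (SE; limma adjusted p = 0.875). Costamere and integrin genes, a second link from actin to the matrix, had a median of 0.26 with 8 of 9 above 0. In hDMD mdx against mdx and in the human gene comparison all 9 were below 0, with medians of -0.20 and -0.22 against 0.02 for all probe sets in each. Actg1, cytoplasmic γ-actin, which dystrophin binds at costameres, differed by 0.73 ± 0.29 by dystrophin (SE; limma adjusted p = 0.832), and Itgb1, the integrin β1 chain, by 0.07 ± 0.28 (SE). These comparisons share arrays, and a list's counts are a description.

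The genes whose pattern over the 9 arrays was most like a member's were found among 5665 others by Pearson's r. They were Gpr137b-ps (0.91) and Uck2 (0.91) for Cav3 99050_at, Tenm3 (0.93) and Klhl7 (0.87) for Dag1 101109_at, Fshb (0.96) and Acot1 (0.96) for Sgca 160631_s_at, and Rpl7a (0.98) and Sall3 (0.97) for Sgcb. For Utrn 92508_s_at they were Sys1 (0.95) and Bex1 (0.94), and for the near-floor Dmd probe set Ppp3cc (0.90) and Cenpv (0.87). All points share the same 9 arrays and their split in brightness, and with so many candidates values of this size are a description.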

How the data were processed

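RNA from 1 muscle of each mouse was hybridised to its own array. What the authors deposited is 1 linear intensity per probe set and array, with 19.4% to 29.9% at or below 0 per array. How they were computed and scaled was not given in the sources used here. Intensities were quantile normalised over 9 arrays, values below 0 set to 0, 16 added and log2 taken. Probe sets above the 40th percentile of mean level were kept (7453 of 12422, with 66 controls left out). Names came from the platform annotation, which gave 1 symbol for 10833, several for 396 and none here for 1193. Tests used limma 3.58.1 in R 4.3.3, two-sided, with Benjamini-Hochberg adjustment over the kept probe sets. Genotype contrasts used all 9 arrays and 3 residual degrees of freedom, the dystrophin classes 7, and the additive model of utrophin and human gene on 6 arrays 3. In the genotype contrasts all residual spread comes from the wild-type, mdx and hDMD mdx pairs, each of 1 bright and 1 dim array. Their SE, intervals and p-values by limma therefore cannot separate the spread between mice from the gap between bright and dim arrays. The fit was tested on simulated data whose changes were far larger than the members' differences and which had no split in brightness. That run does not show how well differences of the members' size would be found. Within each array the number of probes limits the precision. Named genes were all member probe sets, up to 4 of the brightest kept genes per list, and the 2 genes most like each member. Members, lists and alternatives, which vary scaling, pseudocount, filter, variance model, brightness, age, covariates and mice, were chosen with earlier results of these data known.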

Additional observations from a re-analysis of the deposited data

Results flagged for a closer look

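Dag1 161183_at stood apart in 1 mouse. Wild-type 1 read 7.39, and the next highest of the 6 arrays with full-length dystrophin was hDMD at 6.94. That gap is 0.6253 of the range of those arrays, just above the 95% critical value of Dixon's test for 6 values. The array is a bright one, and the same mouse was the only female. It was also the highest on the other Dag1 probe set, at 8.33. Chance sets apart about 1 in 20 such groups, and this was 1 of 22 examined for the members.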

How the results depend on the processing

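The count of probe sets that passed by full-length dystrophin, 9, was 0 without normalisation, 1 with a pseudocount of 1, 2 without the filter and 2 with the human gene as a covariate. With 1 mouse left out it ran from 2 to 18: it was 2 without hDMD 1, hDMD mdx 2 or mdx utrn-/- 1, 3 without mdx 1, 5 without hDMD mdx 1 or hDMD mdx utrn-/- 1, and 18 without wild-type 1. In the human gene comparison the count of 0 was 1 with a variance trend and 4 with brightness as a block. The causes were not tested. The other 4 comparisons gave 0 in each alternative run. Over 60 member results, 1066 alternative values held none past the threshold, the lowest adjusted p was 0.37, and 124 had the other sign. Both Cav3 probe sets kept their sign by dystrophin in all 19 alternatives, at 0.40 to 0.80 for 99050_at and 0.30 to 0.87 for 162297_s_at. Contrasts of single genotypes within dim arrays have no residual degrees of freedom and are values without a test. The labels pair no mice across genotypes, so mice were not paired. Brightness entered as a block in alternative runs and through the values within bright and within dim arrays. Signal near the floor limits Dmd, Nos1 and Utrn 92507_at, and Nos1 passed the filter in no alternative that has one.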
